A study of Bos taurus with 48 samples.

Results

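The HOX genes of the 4 clusters HOXA, HOXB, HOXC and HOXD were followed in the longissimus dorsi, the long muscle of the back, of cattle before birth, at birth and up to 30 months of age. They were taken as every probe of the array whose gene name, or symbol in its description, starts with HOXA, HOXB, HOXC or HOXD and a number. The rule found 45 of 21475 probes. They name 40 of the 19642 genes of the array, that is 39 genes with a symbol of their own and 1 entry that leaves HOXD5, HOXD6 and HOXD7 unresolved. HOXA9 had 4 probes, HOXC8 and HOXD9 had 2 each, and every other gene had 1.

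The 48 arrays were 2-colour arrays, so 96 channels each measured the total RNA of 1 muscle sample, from 35 animals in all. Animals labelled Piedmontese or Wagyu, which the methods of the study describe as crosses of those breeds with Hereford, were sampled at 60, 135 and 195 days of gestation (12 prenatal animals, 18 channels), at birth at 280 days (6 newborn animals, 6 channels) and at 3, 7, 12, 20, 25 and 30 months (9 post-natal animals, 48 channels, the same animals measured repeatedly). At 60 days there were only 2 fetuses, GP663 of the Piedmontese cross and GW911 of the Wagyu cross, each on 3 arrays. Belmont Red cattle on a weight loss diet or on a weight growth diet were sampled at 3 times, called 0, 1 and 2 (8 adult animals, 24 channels). No group carried a transgene or an engineered allele. Where along the back each biopsy was cut is not given in the sources used here. Each animal counted once in every test but the trend over age after birth, which used each animal at each of its ages with the animal as a block. A post-natal animal's value is its mean over its ages, and a diet animal's its mean over its times, unless an age or time is given. Levels are log2 intensities after normalization, which are comparable between animals for 1 probe but not between probes.

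HOX proteins are transcription factors that bind DNA through a shared homeodomain. In the embryo they give cells their address along the head to tail axis. Their genes stand in 4 clusters, and genes at the same place in each cluster are paralogues with the same number. Low numbers are switched on early and towards the head, and high numbers late and towards the tail. Muscle cells and the connective tissue around them keep a HOX pattern that reflects where they arose, and groups 5 to 9 are those of the trunk. Group 10 and group 11 are known for the lumbar and sacral region and for the limb, and group 13 for the tail, the digits and the urogenital tract.

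Paralogues are alike in sequence, so each level rests on how well a 60-base probe tells its gene from the others. The HOX probes were compared with each other only. How far each binds the transcripts of other HOX genes was not tested. Over the 45 HOX probes, the longest run of identical bases shared by probes of different genes was 12, and the identity of a probe to its most alike HOX probe lay between 44.1% and 69.5%. Only 7 probes read a piece of the homeodomain code. Among them were the most alike pair, HOXC8 probe 2 and HOXD4, which are 41 of 59 aligned bases identical, and the pair HOXA7 and HOXD12, which are 28 of 48 aligned bases identical. Both pairs are printed here with the shared run in capitals, as the 2 pairs of these probes with the longest shared runs. Their members gave unlike readings. HOXC8 was higher and HOXD4 lower after birth, and HOXA7 was detected in every stage and HOXD12 in none. Other alike pairs gave like readings. HOXC12 and HOXD12 (33 of 48 aligned bases identical) were both detected in no stage. HOXC5 and HOXD4 (30 of 44) were both lower in newborn than in prenatal animals. The sequences are those of the deposited feature files, on the probe's own strand.
HOXC8 probe 2: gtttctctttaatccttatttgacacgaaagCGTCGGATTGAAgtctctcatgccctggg
HOXD4: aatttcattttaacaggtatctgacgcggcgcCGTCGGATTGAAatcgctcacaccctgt
HOXA7: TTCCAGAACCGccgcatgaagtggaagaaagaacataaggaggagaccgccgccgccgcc
HOXD12: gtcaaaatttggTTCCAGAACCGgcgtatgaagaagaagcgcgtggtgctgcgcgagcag

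Between 49.9% and 76.4% of the spots of a channel were well above background. The muscle label was checked against marker genes. The summed signal of the skeletal muscle fibre markers lay between 17.16 and 19.61 on the log2 scale in 11 of the 12 prenatal animals. It was 13.33 in the other, the fetus GP672 (135 days, Piedmontese cross, 1 channel). In GP672 the fetal myosin MYH3 stood at 12.08 against 17.01 to 18.06 in the other fetuses, and the muscle actin ACTA1 at 10.02 against 16.09 to 17.57. The fat genes FABP4 and PLIN1 stood at 16.56 and 12.44 there, against 7.04 to 11.63 and 7.16 to 8.39. The library labelled GP672 therefore went against its muscle label, and results that rest on it are given with and without it. After birth the range of the muscle fibre sum was 19.37 to 19.78 in newborn and 19.55 to 19.77 in post-natal animals.

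The middle of the clusters was detected in back muscle at every age, and the tail end was for the most part not detected after birth. A probe counted as detected in a stage when it was well above background in most channels of that stage. By this measure 31 of the 45 HOX probes were detected before birth, 27 in newborn, 26 in post-natal and 27 in diet animals, and 31 before birth also without GP672. All 4 stages detected the same 25 probes, for 20 genes, while 12 probes, for 11 genes with a symbol of their own and the unresolved entry, were detected in no stage. Of the 15 genes of groups 4 to 8, 13 were detected before birth and 13 in post-natal animals, 12 of them in all 4 stages. Of the 9 genes of groups 11 to 13, 2 were detected before birth, HOXA11 and HOXD13, and 0 in post-natal animals. Detection counts channels, not animals, and the 6 channels at 60 days came from only 2 fetuses. HOXA11 was above background in 6 of 6 channels at 60 days, 4 of 6 at 135 days and 2 of 6 at 195 days. Its detection before birth therefore leaned on those 2 fetuses, as did that of HOXD10. HOXD13 was above background in 4 of 6, 4 of 6 and 3 of 6 channels at these ages.

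**Figure D1:**
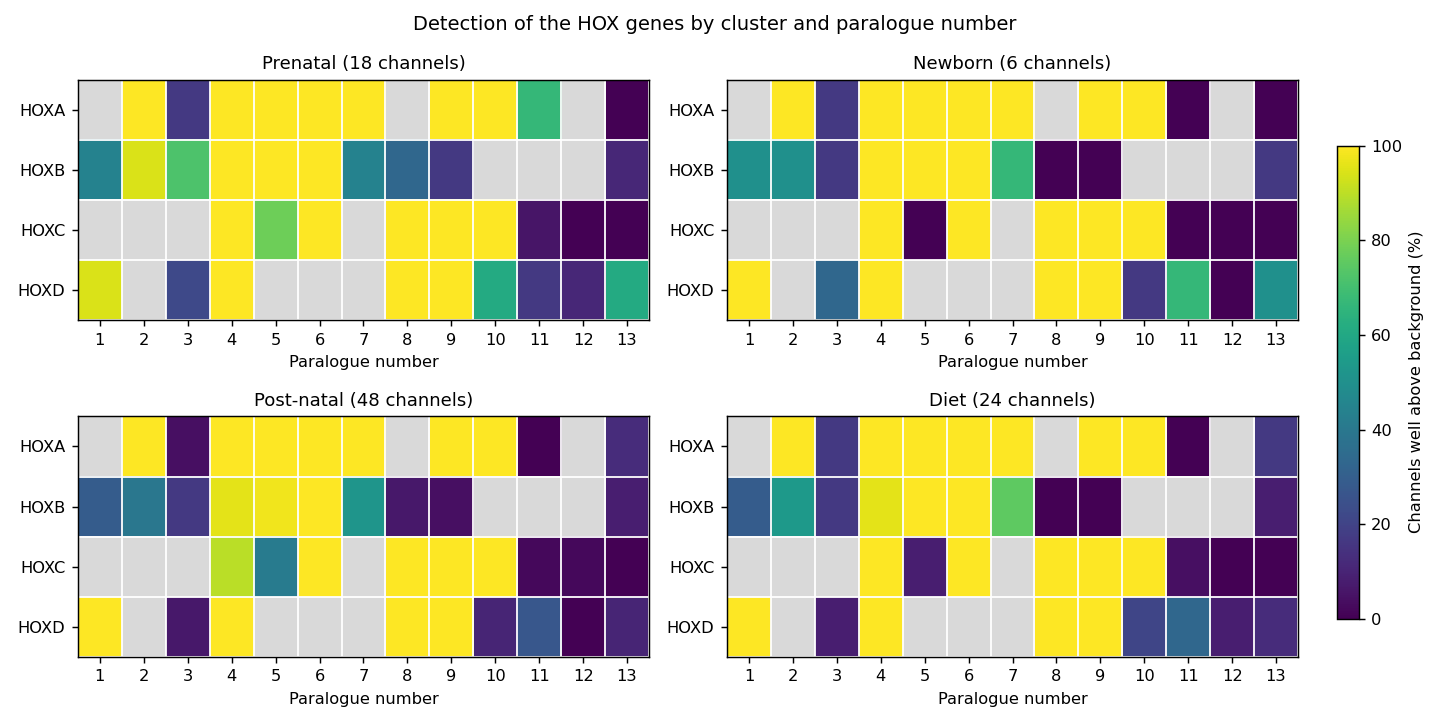
The grid plots, for each HOX gene by cluster (rows) and paralogue number (columns), the share of channels in percent in which its probe was well above background, in each of the 4 stages. Grey squares are places with no gene of that name on the array or with no value shown, and for genes with several probes the highest share is drawn. Groups 4 to 10 are mostly bright in all stages, HOXB8, HOXB9 and most of groups 11 to 13 are dark after birth, with HOXD11 and HOXD13 brighter in newborn animals, and HOXA11 and HOXD10 are brighter before birth than later.

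By cluster, the genes detected in post-natal animals were 8 of 11 in HOXA, 4 of 10 in HOXB, 5 of 9 in HOXC and 4 of 10 in HOXD. In HOXA they included HOXA2, HOXA4, HOXA5, HOXA6, HOXA7, HOXA9 and HOXA10. In HOXB they were HOXB4, HOXB5, HOXB6 and HOXB7, and HOXB8 and HOXB9 were above background in only 3 and 2 of 48 post-natal channels. HOXC contributed HOXC4, HOXC6, HOXC8, HOXC9 and HOXC10, and HOXD contributed HOXD1, HOXD4, HOXD8 and HOXD9. HOXA3, HOXB1, HOXB8, HOXB9, HOXD3, HOXA13, HOXB13, HOXC11, HOXC12, HOXC13 and HOXD12 were detected in no stage, HOXC13 and the unresolved HOXD5/HOXD6/HOXD7 probe in 0 of 96 channels. HOXB2 and HOXB3 were above background in 17 and 13 of 18 prenatal channels, but in 19 and 8 of 48 post-natal channels. HOXC5 went from 14 of 18 prenatal channels to 0 of 6 newborn, 20 of 48 post-natal and 2 of 24 diet channels. HOXD11 was above background in 4 of 6 newborn channels and in 3 of 18 prenatal and 13 of 48 post-natal channels. These are statements on signal over background, and a gene that was not detected may be present below it.

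The level of most detected HOX genes differed between fetal and post-natal muscle, with HOXD probes mostly higher and HOXA probes mostly lower after birth. Of the 31 HOX probes above background in at least 24 of 96 channels, 12 were higher and 12 lower in post-natal than in prenatal animals (limma, Benjamini-Hochberg adjusted p under 0.05). Over all 15822 probes tested, 39.4% were higher and 35.3% lower, so the share of HOX probes that changed was near that of the whole array. The median difference was 0.00 over the HOX probes and 0.03 over all probes. In HOXA 7 of 11 probes were lower and 2 higher, and in HOXB 4 of 7 were lower and 2 higher. In HOXC 3 of 7 were higher and 0 lower, and in HOXD 5 of 6 were higher and 1 lower. Without GP672 the counts by cluster stayed the same but for HOXA, where 1 probe was higher. With median centring in place of loess, 11 HOX probes were higher and 7 lower, and the median of all probes was 0.13. The other 14 HOX probes did not reach the limit of 24 channels and were not tested. Prenatal and post-natal arrays lay on different slides, so slide and stage cannot be told apart in this comparison.

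**Figure D2:**
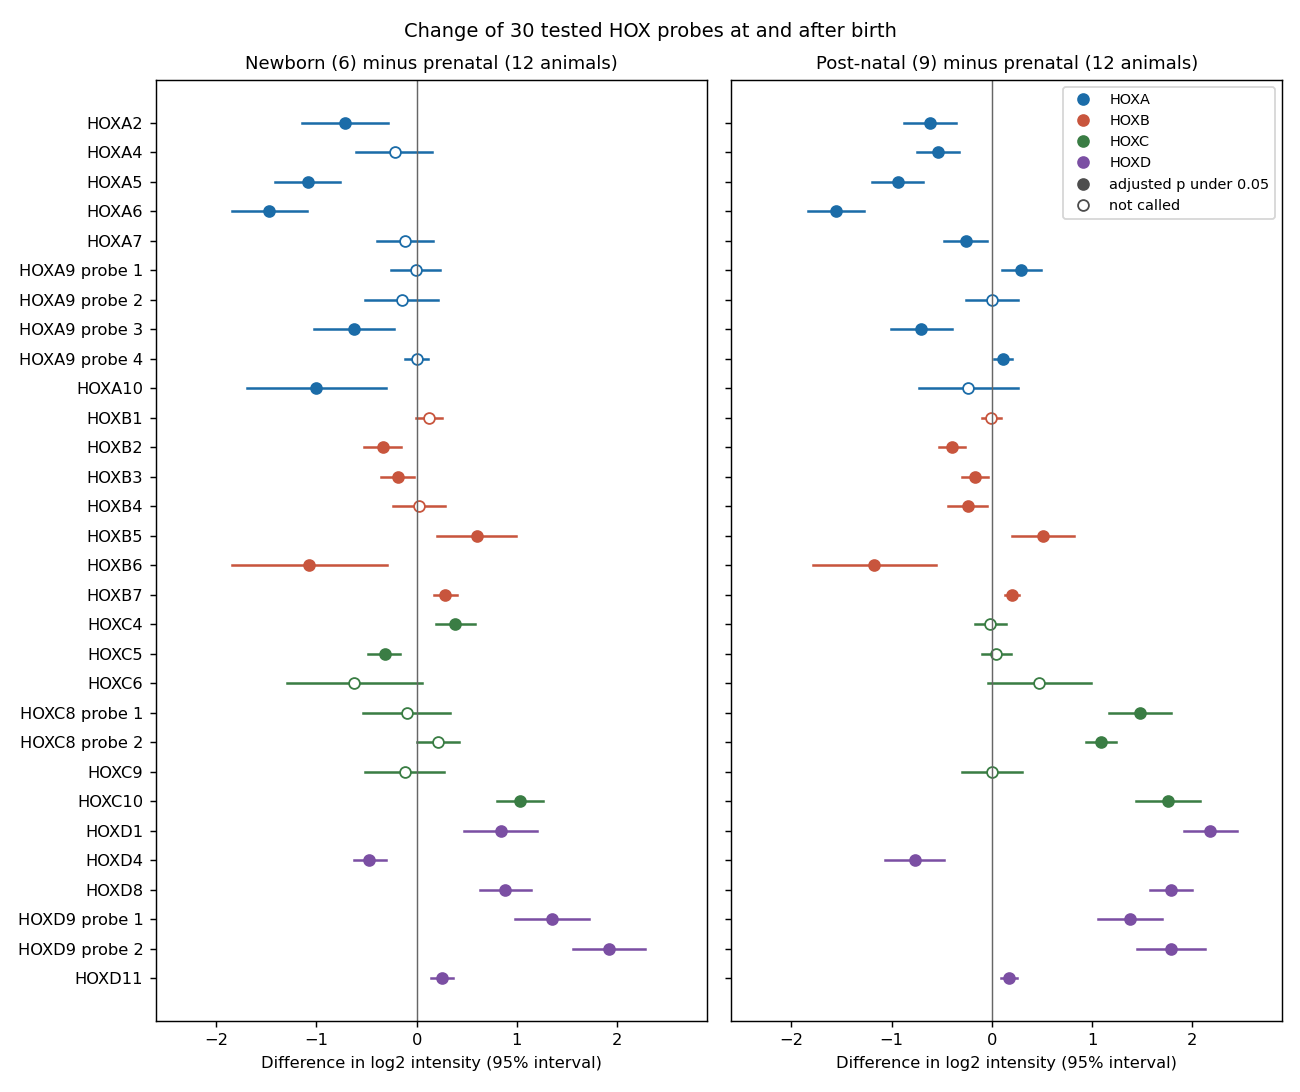
Each point is the difference in log2 intensity of 1 HOX probe, for all but 1 of the 31 tested, newborn minus prenatal animals on the left and post-natal minus prenatal animals on the right, with its 95% confidence interval and the cluster in colour. Filled points passed an adjusted p of 0.05 and open points did not. HOXD points other than HOXD4 lie to the right of 0 in both panels, HOXA5, HOXA6 and HOXB6 lie to the left in both, and the HOXC8 points are filled only in the post-natal panel.

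The make-up of the samples changed between the same stages. In bulk RNA, fewer cells of a type and less RNA per cell cannot be told apart. Of the fibroblast and connective tissue markers 9 of 10 probes were lower and 0 higher in post-natal than in prenatal animals, the lower ones including POSTN (log2 difference -5.04 ± 0.43) and COL1A2 (-3.06 ± 0.22). Their summed signal was 17.15 to 18.31 in prenatal, 14.79 to 15.65 in newborn and 15.05 to 16.32 in post-natal animals. All 3 fetal muscle fibre probes were lower, MYH3 with -8.32 ± 0.53, as were all 4 cell division probes, TOP2A with -3.65 ± 0.28. All 5 cartilage and tendon probes were lower, COL2A1 with -3.74 ± 0.79. Endothelial markers were lower in 4 of 5 probes, Schwann cell and nerve markers in 3 of 4, and satellite cell and myoblast markers in 2 of 3 or, without GP672, 3 of 3. Muscle fibre markers were higher in 5 of 8 probes, 6 without GP672, with MYH1 higher by 4.02 ± 0.84 and TTN by 3.73 ± 0.47. Adipocyte markers were higher in 1 of 4 probes, CIDEC with 2.31 ± 0.80, and in all 4 without GP672. Blood and immune markers were higher in 3 of 6 probes and lower in 2, the globin gene HBA with -5.87 ± 0.25. The part of these shifts in the HOX differences was not tested. GP672, with little muscle signal, was the highest fetus for HOXA5 (10.72) and HOXA6 (12.88) and the lowest for HOXC10 (8.13), HOXD1 (7.05), HOXD8 (7.41) and both HOXD9 probes (10.97 and 8.32).

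The HOXD cluster held the largest rises among the HOX probes. HOXD1, the most head-ward gene of its cluster and known from sensory neurons, ranged from 7.05 to 8.29 (median 7.82) in prenatal, from 8.10 to 9.26 (median 8.61) in newborn and from 9.54 to 10.42 (median 9.87) in post-natal animals. Every post-natal mean was above all prenatal and newborn animals, and the newborn range overlapped the prenatal one. Single post-natal values went down to 8.53 at 3 months and so overlapped the newborn animals. The post-natal minus prenatal difference was 2.18 ± 0.13 (SE) on the log2 scale, 4.54-fold, with an adjusted p of 1.78e-12, and 2.12 without GP672. It built up in steps, 0.84 ± 0.18 between prenatal and newborn and 1.35 ± 0.16 between newborn and post-natal animals, both called.

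HOXD8, a trunk gene of group 8, ranged from 7.41 to 8.27 (median 8.11) in prenatal, from 8.61 to 9.06 (median 8.94) in newborn and from 9.5 to 10.10 (median 9.80) in post-natal animals. The 3 stages did not overlap. The differences were 0.88 ± 0.12 at birth and a further 0.91 ± 0.09 after it, and 1.79 ± 0.10 in all, 3.46-fold (adjusted p 1.23e-12), or 1.74 without GP672.

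HOXD9, next to it in the cluster, had risen by birth. HOXD9 probe 2 ranged from 8.32 to 9.79 (median 9.23) in prenatal, from 10.87 to 11.35 (median 11.11) in newborn and from 10.60 to 11.84 (median 10.95) in post-natal animals. HOXD9 probe 1 ranged from 10.97 to 12.70 (median 12.25), from 13.42 to 13.68 (median 13.56) and from 13.29 to 13.98 (median 13.60) in the same order. With both probes every newborn and post-natal animal lay above every fetus, and newborn and post-natal animals overlapped. The newborn minus prenatal difference was 1.92 ± 0.17 for probe 2 and 1.35 ± 0.18 for probe 1, while neither probe was called between newborn and post-natal animals (-0.13, interval from -0.45 to 0.19, and 0.03, interval from -0.15 to 0.21). The post-natal minus prenatal difference was 1.79 ± 0.17 (adjusted p 2.66e-09) and 1.38 ± 0.15 (adjusted p 3.91e-08), and 1.71 and 1.27 without GP672, the lowest fetus for both probes.

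HOXD4, a group 4 gene of the neck region, ran against its cluster. It ranged from 8.69 to 9.28 (median 8.97) in prenatal, from 8.34 to 8.65 (median 8.48) in newborn and from 7.04 to 8.57 (median 8.33) in post-natal animals, so that every fetus lay above every newborn animal and every post-natal mean. Single post-natal values reached 8.94 and so overlapped the fetuses. The difference was -0.77 ± 0.14 (adjusted p 4.38e-05) in post-natal and -0.47 ± 0.07 in newborn against prenatal animals. The lowest post-natal value, 7.04, came from GP273, an animal with a single array, and the next was 7.87. HOXD11 was higher by 0.17 ± 0.04 in post-natal animals, but at levels close to background.

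In HOXC, group 8 was higher after birth and was not called at birth. HOXC8 probe 1 ranged from 9.55 to 11.26 (median 10.87) in prenatal, from 10.18 to 11.05 (median 10.81) in newborn and from 12.13 to 12.43 (median 12.25) in post-natal animals. Newborn animals lay within the range of the fetuses, and every post-natal animal lay above both. The difference was 1.48 ± 0.15 against prenatal (2.79-fold, adjusted p 1.13e-08) and 1.58 ± 0.12 against newborn animals (adjusted p 4.66e-08). HOXC8 probe 2, which reads the homeodomain, moved the same way, by 1.09 ± 0.07 and 0.88 ± 0.08. Its levels ranged from 7.48 to 8.21 (median 7.88) in prenatal, from 7.81 to 8.32 (median 8.05) in newborn and from 8.80 to 9.19 (median 8.95) in post-natal animals. The newborn minus prenatal difference was -0.10 (interval from -0.53 to 0.33) for probe 1 and 0.21 (interval from 0.00 to 0.42) for probe 2, called for neither.

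HOXC10, of the group known for the lumbar region, ranged from 8.13 to 9 (median 8.62) in prenatal, from 9.5 to 9.81 (median 9.65) in newborn and from 9.94 to 11.43 (median 10.34) in post-natal animals. The fetuses, the newborn animals and the post-natal means did not overlap. Single post-natal values went down to 9.41 at 30 months and so overlapped the newborn animals. HOXC10 rose by 1.03 ± 0.11 at birth and by 0.73 ± 0.18 after it, and by 1.76 ± 0.15 in all (3.39-fold, adjusted p 9.20e-10), or 1.72 without GP672. The highest value again came from GP273, and the next was 10.68.

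**Figure D3:**
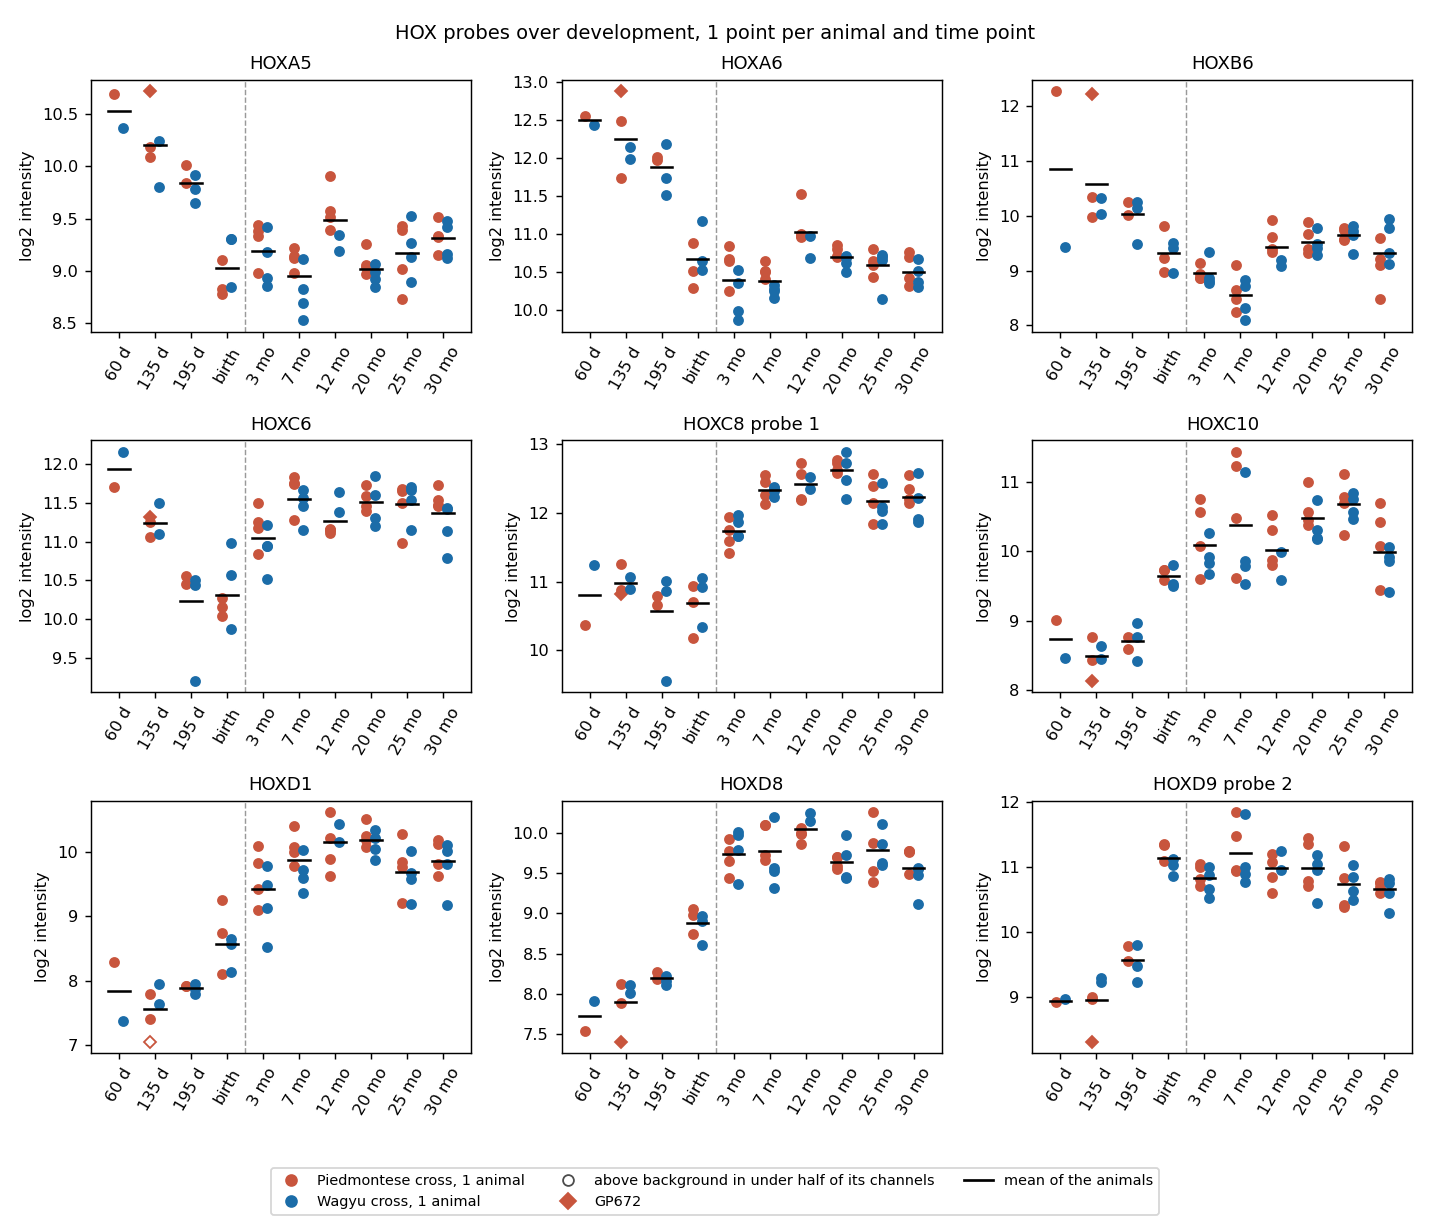
Each point is the log2 intensity of 1 animal at 1 time point (days of gestation, birth, months of age), for 9 HOX probes, with the mean of the animals as a bar and birth to the left of the dashed line. Red is the Piedmontese cross, blue the Wagyu cross and the diamond GP672, and vertical scales differ between panels. HOXA5 and HOXA6 step down towards birth, HOXC8 steps up after birth, HOXD8 climbs before and after birth, and HOXD9 is high from birth on.

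The largest falls were those of HOXA6, HOXB6 and HOXA5, genes of the trunk groups. HOXA6 ranged from 11.51 to 12.88 (median 12.08) in prenatal, from 10.29 to 11.17 (median 10.59) in newborn and from 10.35 to 10.78 (median 10.65) in post-natal animals. Every fetus lay above every newborn animal and every post-natal mean, and the newborn and post-natal ranges overlapped. The highest single post-natal value, 11.53 at 12 months, lay just above the lowest fetus. The post-natal minus prenatal difference was -1.55 ± 0.13 (2.94-fold, adjusted p 9.29e-10), most of it present at birth, with -1.47 ± 0.18. Without GP672, the highest fetus, it was -1.49.

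HOXA5, known for patterning of the neck and chest and of the lung, ranged from 9.65 to 10.72 (median 10.05) in prenatal, from 8.77 to 9.31 (median 8.98) in newborn and from 8.92 to 9.39 (median 9.15) in post-natal animals. It too separated every fetus from every newborn animal and every post-natal mean, although single post-natal values reached 9.91 at 12 months and the diet animal RL671 had a mean of 9.82. The difference from fetuses was -1.08 ± 0.15 in newborn and -0.94 ± 0.12 in post-natal animals (adjusted p 3.21e-07), the latter -0.88 without GP672.

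HOXB6 ranged from 9.42 to 12.26 (median 10.19) in prenatal, from 8.95 to 9.82 (median 9.32) in newborn and from 9.05 to 9.43 (median 9.22) in post-natal animals. Its fetal spread was wide, with the highest value in GP663 at 60 days, and the lowest fetus lay within the newborn range. The difference was -1.17 ± 0.29 in post-natal animals (adjusted p 0.00113) and -1 without GP672.

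Smaller falls in post-natal against prenatal animals were found in HOXA2 (-0.62 ± 0.13), HOXA4 (-0.54 ± 0.10), HOXB2 (-0.40 ± 0.06), HOXA7 (-0.26 ± 0.10), HOXB4 (-0.24 ± 0.10) and HOXB3 (-0.17 ± 0.06). Their groups overlapped. The fall of HOXB3 turned to 0.05 under median centring and was then not called. HOXB5 went the other way, with 0.51 ± 0.15, from a median of 7.66 in fetuses to 8.42 in newborn and 8.25 in post-natal animals. HOXB7 was higher by 0.20 ± 0.03, near background.

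The 4 probes of HOXA9 disagreed, so no direction can be given for that gene. HOXA9 probe 3 ranged from 11.15 to 12.54 (median 11.73) in prenatal, from 10.73 to 11.60 (median 11.13) in newborn and from 10.68 to 11.35 (median 11.05) in post-natal animals, a difference of -0.71 ± 0.15 (adjusted p 0.000198) with some overlap. HOXA9 probe 1 was higher by 0.29 ± 0.09, and probe 4 by 0.11 ± 0.04, a call that was lost without GP672 (adjusted p 0.0510). HOXA9 probe 2 differed by 0.00, with an interval from -0.26 to 0.26. The probes of HOXC8 and HOXD9 agreed in direction between prenatal and post-natal animals.

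**Figure D4:**
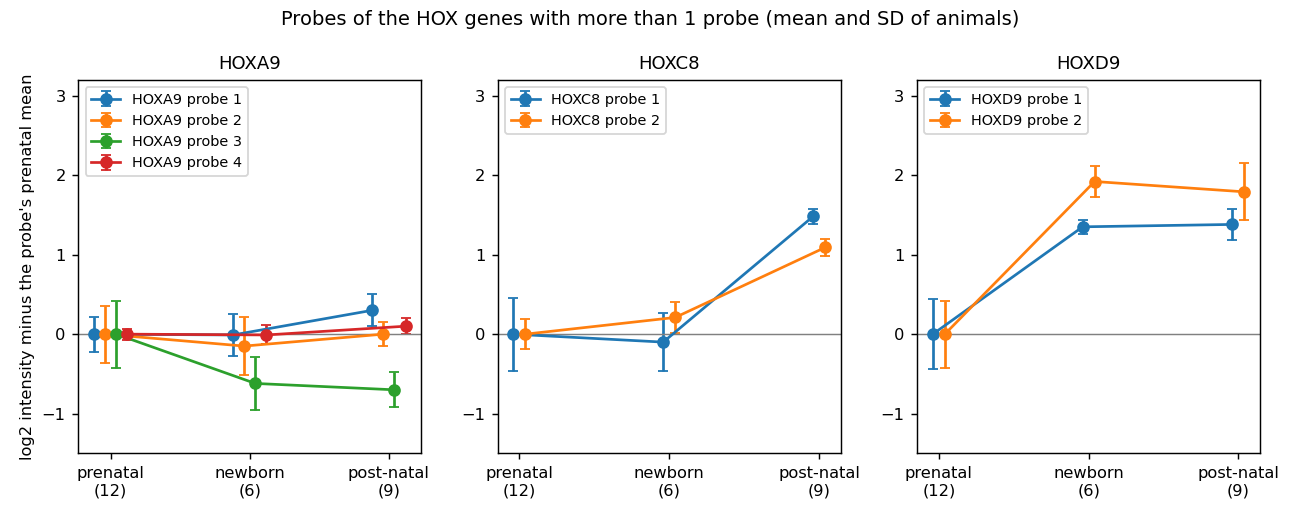
The plot shows, for the 3 HOX genes with more than 1 probe, the mean log2 intensity of each probe by stage minus that probe's prenatal mean. Error bars are the SD over 12 prenatal, 6 newborn and 9 post-natal animals. The probes of HOXC8 and of HOXD9 move together, and HOXA9 probe 3 falls while probe 1 lies above 0 in post-natal animals.

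Some HOX genes fell towards birth and came back after it. HOXC6 had means of 11.93 at 60 days, 11.24 at 135 days and 10.23 at 195 days of gestation and of 10.32 at birth, and then 11.05 at 3 months and 11.55 at 7 months. The trend over gestation was -0.71 ± 0.15 per 100 days (adjusted p 0.000471), and post-natal animals were higher than newborn animals by 1.09 ± 0.14 (adjusted p 1.06e-05). Post-natal against prenatal animals it was not called, with 0.47 and an interval from -0.04 to 0.99. HOXA10 fell from a mean of 11.05 at 60 days to 9.14 at birth and stood higher by 0.76 ± 0.20 in post-natal than in newborn animals. Its mean at 3 months, 9.25, was still near that at birth, and it was 9.78 at 7 months. HOXC5 also fell to birth and stood higher after it, close to background, with -0.32 ± 0.07 at birth and 0.37 ± 0.07 after it. HOXC4 did the reverse, rising by 0.38 ± 0.09 at birth and falling after it (-0.40 ± 0.07). HOXC9 fell by 0.29 ± 0.10 per 100 days before birth, and its post-natal minus prenatal difference was 0.00, with an interval from -0.30 to 0.30.

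Fetal and newborn samples shared the same 3 slides, so the change up to birth could be compared within slides. Each fetal age and birth kept its own array position on all 3 slides, so age and array position cannot be told apart there. Of the 31 HOX probes 9 were higher and 10 lower in newborn than in prenatal animals, against 38.4% higher and 31.4% lower of all probes tested. With slide as a fixed term and animal as a random block, 9 HOX probes were higher and 9 lower. Within each of the 3 slides the 19 probes had the direction of their call, which is a description of the values that gave the calls, with GP663 and GW911 on all 3 slides. Over gestation to birth, with 280 days for birth, 8 HOX probes rose and 12 fell (38.1% and 30.2% of all probes), the steepest rise being HOXD9 probe 2 with 1.19 ± 0.13 and the steepest fall HOXA6 with -0.93 ± 0.12 per 100 days. Without GP672 9 rose and 12 fell. Between newborn and post-natal animals 9 HOX probes were higher and 3 lower, against 27.9% and 28.9% of all probes. Post-natal arrays lay on other slides than those of newborn animals, so slide and stage cannot be told apart there. The comparisons of newborn, prenatal and post-natal animals share animals, so their counts are not independent of each other.

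The tail-ward genes HOXA11 and HOXD10 were highest in the fetuses of 60 days. HOXA11 was above background in 6 of 6 channels at 60 days, 4 of 6 at 135 days and 2 of 6 at 195 days, and then in 0 of 6 newborn, 0 of 48 post-natal and 0 of 24 diet channels. Its level at 60 days was 9.78 in GP663 and 7.51 in GW911, and 7.97 in GP672 at 135 days. In post-natal animals it was not well above background. With the lowest signal of any probe well above background as the dim side, GP663 was 8.48-fold and GW911 1.76-fold higher. That limit is not HOXA11's own, so the folds are not strict lower bounds. HOXD10 had the same course, with 10.25 in GP663 and 8.54 in GW911, and was above background in 6 of 6, 4 of 6 and 1 of 6 channels at the 3 fetal ages. It was above background in 5 of 48 post-natal channels, where its mean was 6.94. HOXD13 was above background in 11 of 18 prenatal and 5 of 48 post-natal channels, with levels between 6.83 and 7.32 in fetuses. Its mean hardly differed between the stages, with 6.96 in prenatal, 7.03 in newborn, 6.91 in post-natal and 6.92 in diet animals.

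GP663 stood above GW911 in several other tail-ward probes. HOXB8 was at 7.63 against 6.88, HOXB9 at 7.51 against 6.67, and HOXD13 at 7.32 against 6.85. Each value is the mean of 3 channels of 1 fetus, so animal and cross cannot be told apart at this age. Well above background were 3 of 3 channels of GP663 and 2 of 3 of GW911 for HOXB8, 2 of 3 and 0 of 3 for HOXB9, and 3 of 3 and 1 of 3 for HOXD13. The cartilage and tendon markers summed to 16.49 in GP663 and to 16.89 in GW911, to between 14.27 and 16.07 in 4 of the 5 fetuses of 135 days and 10.51 in the other, GP672, and to between 11.20 and 11.66 in the 5 fetuses of 195 days. Their part in these HOX levels was not tested.

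**Figure D5:**
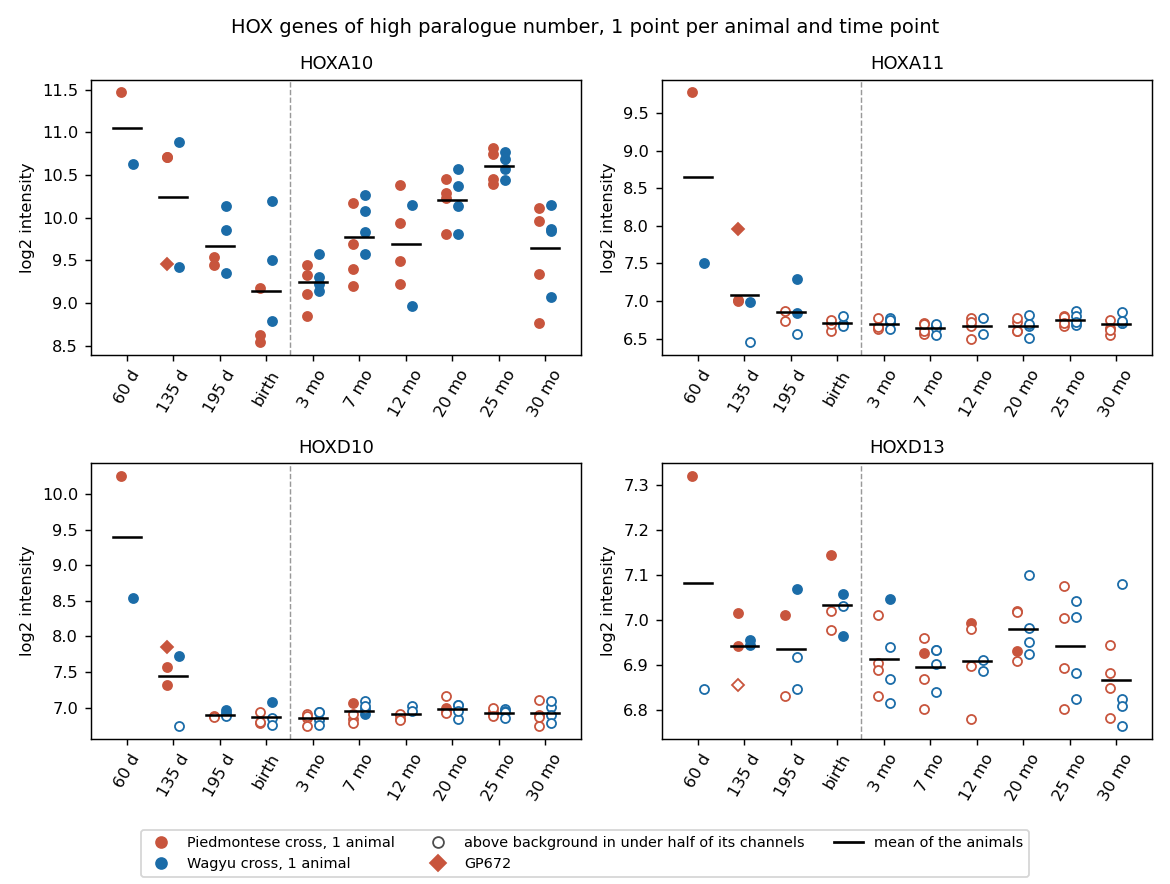
Each point is the log2 intensity of 1 animal at 1 time point for HOXA10, HOXA11, HOXD10 and HOXD13, and open points mark animals whose probe was above background in fewer channels than not. HOXA11 and HOXD10 are high in the 2 fetuses of 60 days, with GP663 the higher. From birth on HOXA11 is open in every animal and HOXD10 in most, while HOXA10 is filled throughout. The scale of the HOXD13 panel spans less than 1 log2 unit.

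Over 3 to 30 months, with each animal as its own block, 6 HOX probes rose and 2 fell, against 16.0% and 21.2% of all probes. Among them, per 12 months, HOXB6 rose by 0.33 ± 0.07 and HOXA10 by 0.32 ± 0.09, HOXB4 by 0.18 ± 0.03, HOXA7 by 0.10 ± 0.03 and HOXC5 by 0.08 ± 0.02. HOXB5 fell by 0.24 ± 0.03 (adjusted p 2.10e-07) and HOXD9 probe 2 fell by 0.13 ± 0.05. HOXB5 had means of 8.60 at 3 months, 8.44 at 12 months and 8.04 at 30 months. HOXA10 went from 9.25 at 3 months to 10.61 at 25 months and stood at 9.64 at 30 months. The ages from 3 to 20 months shared 4 slides, each age at its own array position, so age and position cannot be told apart there. The samples of 25 and 30 months lay on other slides. Within 3 to 20 months 11 HOX probes rose and 1 fell, where 3679 of all 15822 probes were called. There HOXA10, HOXB6, HOXB4 and HOXB5 kept their calls and HOXD9 probe 2 turned to 0.06. With median centring, fitted over all ages from 3 to 30 months, only HOXB5 kept its call.

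Between the Piedmontese and the Wagyu cross 0 HOX probes were called before and at birth and 0 after birth, as were 0 of all 15822 probes, a background of 0%. At an unadjusted p under 0.05 there were 1 HOX probe and 655 probes in all before and at birth, and 4 and 821 after birth. The deposited log ratios likewise gave 0 HOX calls in both. The 4 after birth were HOXA2, HOXA4, HOXA5 and HOXA6, each higher in the 5 Piedmontese than in the 4 Wagyu cross animals, by 0.25, 0.25, 0.17 and 0.25 on the log2 scale. Their smallest adjusted p was 0.565. The 95% interval of a HOX probe reached a median of 0.25 to either side of its difference before and at birth, and 0.17 after birth. The change from prenatal to post-natal animals was called as different between the crosses for 0 HOX probes and for 0 of all 15822 probes (limma interaction). At an unadjusted p under 0.05 there were also 0 HOX probes.

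Among post-natal animals the SD between 8 animals, each a mean over its ages, had a median of 0.130 over the 31 HOX probes, and the SD within animals, over 45 values of an animal at an age, had a median of 0.184. Over all probes tested the medians were 0.110 and 0.157. The SD between animals exceeded that within them for 0 HOX probes and for 15.9% of all probes. Averaging over ages lowers the SD between animals, so the 2 SDs are not on an equal footing, and which spread is larger was not tested.

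In the Belmont Red cattle, measured on slides of their own, levels are given as values without a test. The means of HOXD8, HOXA6 and HOXC8 probe 1 were nearer to those of post-natal than of prenatal animals. HOXD8 had a mean of 9.58 ± 0.29 (SD, 8 animals), against 9.79 ± 0.18 in post-natal and 8 ± 0.27 in prenatal animals. HOXA6 had 10.44 ± 0.27, against 10.59 ± 0.14 and 12.14 ± 0.40. HOXC8 probe 1 had 12.29 ± 0.25, against 12.27 ± 0.10 and 10.79 ± 0.46. HOXC10 at 9.36 ± 0.23 lay between 10.38 ± 0.47 in post-natal and 8.62 ± 0.25 in prenatal animals.

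At diet time 1, HOXD1 was the only HOX probe called between the diets in the limma fit of normalized intensities. It stood at 8.69 in RL27, 9.17 in RL24 and 8.71 in RL671 on the weight loss diet, and at 9.38 in RG166, 9.66 in RG604, 10.12 in RG157 and 9.93 in RG208 on the growth diet. The groups did not overlap, and the difference was -0.92 ± 0.20 (adjusted p 0.0277). Among all probes 6.97% were higher and 6.64% lower on the weight loss diet, so 1 of 31 HOX probes lower was below the background share. At time 0 the weight loss animals stood between 9.19 and 9.83 and the growth animals between 9.08 and 10.36, so the groups overlapped. At time 2 the values were 9.64 in RL27 and 10.55 in RL24 against 9.37 in RG166 and 10.07 in RG208, and 0 HOX probes and 0 of all probes were called with 2 animals a diet, with 1 and 887 at an unadjusted p under 0.05. At time 1 the fibroblast and connective tissue markers summed to between 13.27 and 13.97 on the weight loss diet and to between 15.37 and 17.17 on the growth diet, and the muscle fibre markers to between 18.32 and 19 against 19.87 to 21.10. Endothelial markers summed to between 12.51 and 12.71 against 12.98 to 13.60, cell division markers to between 8.71 and 9.02 against 9.63 to 10.21, and cartilage and tendon markers to between 9.43 and 9.89 against 10.40 to 14.28. The sums of the other 5 marker lists overlapped between the diets. The part of these shifts in the HOXD1 difference was not tested. The HOXD1 call was lost when any of 5 of the 7 animals was left out (RL27, RL671, RG604, RG157 or RG208) and with the deposited log ratios (-0.99, adjusted p 0.0551), with which the only HOX call was another probe.

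RNAs of the proteins that work with HOX factors on DNA were more often lower than higher after birth. The TALE homeodomain cofactors (PBX, MEIS, PKNOX and TGIF genes) had 12 probes. Of these 8 were lower and 2 higher in post-natal than in prenatal animals, against 35.3% and 39.4% of all probes. Their median difference was -0.40, against 0.03 over all probes. PBX3 was lower (log2 difference -2.01 ± 0.27) and so was PBX2 (-1.16 ± 0.10), both HOX partners. MEIS2, a partner of PBX, was lower (log2 difference -1.32 ± 0.35), and so was TGIF1, a repressor of the same family (-1.74 ± 0.08).

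Regulators of the clusters moved both ways in post-natal against prenatal animals. So did all probes tested, of which 39.4% were higher and 35.3% lower. Of 18 probes of Polycomb genes, which keep HOX genes silent, 8 were higher and 6 lower. EZH2, which writes the repressive methyl mark on histone H3, was lower (log2 difference -2.68 ± 0.21) and so was CBX6 (-1.29 ± 0.25), while CBX7, a reader of that mark, was higher by 2.36 ± 0.19 and BMI1 by 1.31 ± 0.07. The other 2 CBX7 probes stood at 1.31, called, and at 0.06, not called (adjusted p 0.665). Of 15 probes of Trithorax genes and of demethylases of that mark, which keep HOX genes active, 4 were higher and 7 lower. MEN1 was lower (log2 difference -1.31 ± 0.11), and KDM6A and RBBP5 were higher by 0.70 ± 0.11 and 0.69 ± 0.10. KMT2A held 9 of these probes, of which 5 were lower, the lowest with -0.91 ± 0.13. Of 16 probes of caudal, retinoic acid and axial signals that act upstream of HOX genes in the embryo, 4 were higher and 6 lower, 7 lower without GP672. ALDH1A1, which makes retinoic acid, was higher by 4.06 ± 0.30, while its relative ALDH1A3 was lower (log2 difference -2.38 ± 0.25), and the retinoic acid carrier CRABP1 was lower, with -3.92 ± 0.79. For these 4 lists other counts did not change without GP672.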

How the data were processed

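Total RNA of snap-frozen muscle biopsies was hybridised to 48 bovine 2-colour arrays. The authors deposited Agilent Feature Extraction files (version 9.5.3.1 per the file headers, 9.5.1 per the processing notes) with mean and background intensities per spot, and a table of log10 ratios of Cy5 to Cy3, identical to the ratios in those files. Here, intensities were background-corrected (normexp, offset 50), loess-normalized within arrays and quantile-normalized on average intensity between arrays, with control and flagged spots at weight 0. The log2 intensities of replicate spots were averaged, the dye effect of each probe was removed, and channels of an animal were averaged. Probes well above background in 24 of 96 channels or more (15822) were tested with limma 3.58.1 in R 4.3.3 (lmFit, eBayes, two-sided) with Benjamini-Hochberg adjustment over all of them, and 0.05 as the threshold. The age trend had the animal as a fixed block. The fits were tested on simulated data. Nothing says that the 2 samples named GP041A and GP041B come from different animals, and counting them as 1 was an alternative. The HOXA11 folds set the bright animal's mean against the higher of the dim probe's level and the lowest signal of any probe well above background in a channel. Gene symbols came from the files and from the RefSeq table of assembly ARS-UCD2.0, in which all 39 named HOX genes were found by symbol. The HOX genes are named, with full values for the 12 called HOX probes of largest post-natal minus prenatal difference and for those called between crosses, diets or ages, and means, ranges or differences for other detected ones. Of every other list up to 4 called genes of largest difference are named. A HOX gene and a gene of another list are counted but not reported by name here. The members and gene lists were chosen with earlier results of these data known. Array signals carry no read depth, and the number of animals limits the precision.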

Additional observations from a re-analysis of the deposited data

Results flagged for a closer look

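In 13 of 93 groups of 6 to 9 animals (31 tested HOX probes in newborn, post-natal and diet animals), the most extreme animal stood apart from the rest by Dixon's test. For independent groups chance gives about 1 in 20. These groups share animals, so their count cannot be set against that rate, and the share over all probes is not given. In 5 of the 13 groups the animal was GP273, with a single array at 7 months: HOXC10 at 11.43 (next 10.68), HOXD9 probe 2 at 11.84 (next 11.11), HOXC5 at 7.46 (next 7.11) and HOXA9 probe 4 at 7.68 (next 7.49) were its highest, and HOXD4 at 7.04 (next 7.87) its lowest. The post-natal animal GP130 was highest for HOXB1 at 7.05, and the newborn animal GW175 for HOXB4 at 8.13. Among the diet animals RL671 was highest for HOXA5 at 9.82 and HOXA9 probe 1 at 9.29, and lowest for HOXB5 at 7.68 and HOXC8 probe 1 at 11.79. RG166 was lowest for HOXB4 at 7.18 and HOXB6 at 9.01.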

How the results depend on the processing

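The 12 HOX probes described in full kept direction and call between post-natal and prenatal animals under all 35 alternatives. Those 12 were picked as the called probes of largest difference in that same comparison, so their stability there is no independent support. Of the 84 HOX calls in all comparisons, 48 kept direction and call under every alternative run. Under median centring HOXB3 turned to 0.05 in post-natal and 0.07 in newborn against prenatal animals and to 0.01 over gestation, and calls split 11 higher and 7 lower, 9 and 6, and 8 and 7 in those comparisons. The age trend then had 1 HOX call in place of 8, and 852 calls in place of 5883 over all probes. With 3-month animals alone against newborn animals HOXB1 came to 0.00, and over 3 to 20 months alone HOXD9 probe 2 stood at 0.06 per 12 months, not called. Counting a probe as detected from 1 channel on gave 41 HOX probes in post-natal animals. Leaving out 1 array of each group gave 21 to 25 HOX calls in post-natal and 16 to 20 in newborn against prenatal animals, 11 to 13 in post-natal against newborn animals, 19 to 20 over gestation, 3 to 8 over age (3 without the second or the fourth array of each age) and 0 to 1 at diet time 1. Counting GP041A and GP041B as 1 animal changed no count. Leaving out 1 animal gave 23 to 25, 18 to 21, 11 to 12, 19 to 21 and, at diet time 1, 0 to 1. Leaving out GP672 in the counts by cluster and list, the crosses and detection, the 60-day fetuses in comparisons up to birth, and single animals at diet time 1 were alternatives chosen after seeing the data. No paired analysis was possible because the replicate numbers only follow the order of the samples, and blocks were by animal or slide instead. That limit concerns replicate numbers only. Crosses or diets set against each other on an array were compared within the array only through the deposited log ratios. With those ratios 0 HOX probes were called between the crosses, and the HOXD1 call at diet time 1 was lost (log2 difference -0.99, adjusted p 0.0551). Signal over background limits groups 11 to 13, HOXB7 to HOXB9 and HOXC5.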
